A study of Arabidopsis thaliana with 18 samples.

Results

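Of 27564 genes measured in early embryos of Arabidopsis thaliana, the thale cress, 168 nuclear genes stood at 500 TPM or more in every one of 18 libraries. The unit is TPM, which divides a library among its transcripts after correcting for their lengths, so that each library has the same total. The 168 were chosen by these levels, so the levels are a description, and genes that dropped under 500 TPM in any library are outside the set by construction. Ribosomal proteins made up 130 of them, 77 of the large subunit, 49 of the small subunit and 4 fused to ubiquitin. The other 38 were translation factors, nucleolar and small ribonucleoprotein proteins, chaperones, a few enzymes, and 3 loci whose sequence is described apart. The 3 genes nearest above the threshold were AT4G10450, AT4G37830 and UBC10 (AT5G53300), with lowest values of 500.6, 502.2 and 510.4 TPM. The 3 nearest below it were AT2G37190, mtACP2 (AT1G65290) and GAPC1 (AT3G04120), with lowest values of 497.8, 494.2 and 493.0 TPM. A limit of 250 TPM would have kept 328 genes and a limit of 1000 TPM 91.

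The embryos were dissected by hand at 6 stages with 3 libraries each, called 2/4-cell, 8-cell, 16-cell and 32-cell and then globular and heart. The labels give no genotype or accession of the plants, which grew at 22 °C in 16 h of light and 8 h of dark. Messenger RNA was captured on poly(A) beads and its cDNA amplified with a kit for very small inputs, and nothing in the labels says that libraries of a stage came from separate plants or how many embryos were pooled. The embryo regulators LEC1 and WOX2 were present in every library, and the summed endosperm markers AGL62, FIS2 and RGE1 were between 0.0690 and 9.64 TPM. The summed seed coat markers BAN, TT4 and DFR were between 301.8 and 1132 TPM in the 2/4-cell libraries, above WOX2 there (127.4 to 148.7 TPM), between 24.5 and 55.8 TPM at 8-cell, and between 4.79 and 21.5 TPM in all later libraries but 32-cell replicate 2, at 210.3 TPM. In whole embryos a lower TPM can mean fewer cells of a type, less RNA per cell, or more of other transcripts, and these cannot be told apart.

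The cytosolic ribosome is built from a large and a small subunit, each a ribosomal RNA core covered by many proteins, and plants usually keep several gene copies for each protein. Growing tissues make ribosomes constantly, and the messages for their proteins are short, abundant and regulated together. In Arabidopsis their promoters are known for the telo-box, named for its likeness to the telomere repeat, and for site II elements bound by TCP transcription factors.

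Those elements are shown in the 170 bases before the annotated start of 4 of the most abundant genes, read 5′ to 3′ on the gene's strand from the TAIR10.1 genome of RefSeq. Capitals mark matches on either strand to the telo-box AAACCCTA, the site II words TGGGCC and TGGGCT, and TATAAA.

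AT5G15200 (S4 family, small subunit), chr5:4936430-4936599, minus strand: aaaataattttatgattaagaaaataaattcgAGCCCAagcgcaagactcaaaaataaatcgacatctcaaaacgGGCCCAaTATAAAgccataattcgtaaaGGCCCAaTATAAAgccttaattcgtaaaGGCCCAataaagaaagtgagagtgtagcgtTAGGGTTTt

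AT4G27090 (L14, large subunit), chr4:13595253-13595422, minus strand: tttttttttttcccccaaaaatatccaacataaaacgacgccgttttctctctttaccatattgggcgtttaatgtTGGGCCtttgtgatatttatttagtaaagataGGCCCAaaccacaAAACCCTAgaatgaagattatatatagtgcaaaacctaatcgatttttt

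AT5G60390 (elongation factor eEF1A), chr5:24288488-24288657, plus strand: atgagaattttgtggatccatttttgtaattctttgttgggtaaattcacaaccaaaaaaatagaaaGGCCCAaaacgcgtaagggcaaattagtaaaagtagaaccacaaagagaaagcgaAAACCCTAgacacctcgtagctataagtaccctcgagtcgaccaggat

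AT3G24250 (glycine-rich protein), chr3:8786519-8786688, plus strand: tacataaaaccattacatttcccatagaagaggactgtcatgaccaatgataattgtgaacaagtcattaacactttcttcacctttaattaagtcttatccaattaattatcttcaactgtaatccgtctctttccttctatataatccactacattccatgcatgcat

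The first promoter held 4 site II words in the minus orientation, 2 TATAAA words and a telo-box at its very end. AT4G27090 and AT5G60390 each held a telo-box with site II words upstream of it, 2 in the one and 1 in the other. AT3G24250 is shown because it had the largest increase of the 168 over the series, and its stretch held none of these words. The other promoters shown each hold both elements and do not stand for all abundant genes. AT5G02960, AT4G09320 and AT5G20290, also among the most abundant, held site II words but no telo-box within 250 bases. Over 250 bases, a site II word stood in 122 of 168 promoters (72.6%), against 24.3% of the 18206 promoters of tested genes. The telo-box stood in 36 (21.4%), against 4.31%, and both together in 28 (16.7%), against 1.65%. TATAAA stood in 50.6%, against 45%. The site II share was 75.4% among the ribosomal proteins and 63.2% among the other 38. Matched telo-boxes began a median of 34 bases before the start, and site II words 65 bases. A match is a description of letters and not a bound site.

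Together the 168 transcripts held between 24.2% (heart replicate 1) and 43.1% (16-cell replicate 3) of a library. The summed levels were 340230.0, 360866 and 330107 TPM in the 2/4-cell libraries, 351627, 404901 and 348590.0 at 8-cell, 352071, 364719 and 430683 at 16-cell, 331743, 354044 and 330732 at 32-cell, 308284, 282101 and 302584 at globular and 242470.0, 294301 and 282175 at heart. All heart and globular libraries lay below all earlier ones. Ribosomal proteins alone took 18.6 to 34.8% of a library. The stage of highest mean was 16-cell for 82 genes and 8-cell for 61, and that of lowest mean was heart for 113. The order of 16-cell and 8-cell depends on single libraries. Between these stages the median log2 fold change of the 168 was 0.02. It was -0.06 without 16-cell replicate 3 and 0.08 without 8-cell replicate 2. The highest stage mean was under 2 times the lowest for 157 of the 168. Heart replicate 1 was the lowest library for 120 of them, so this library bears on which genes pass the limit.

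**Figure D1:**
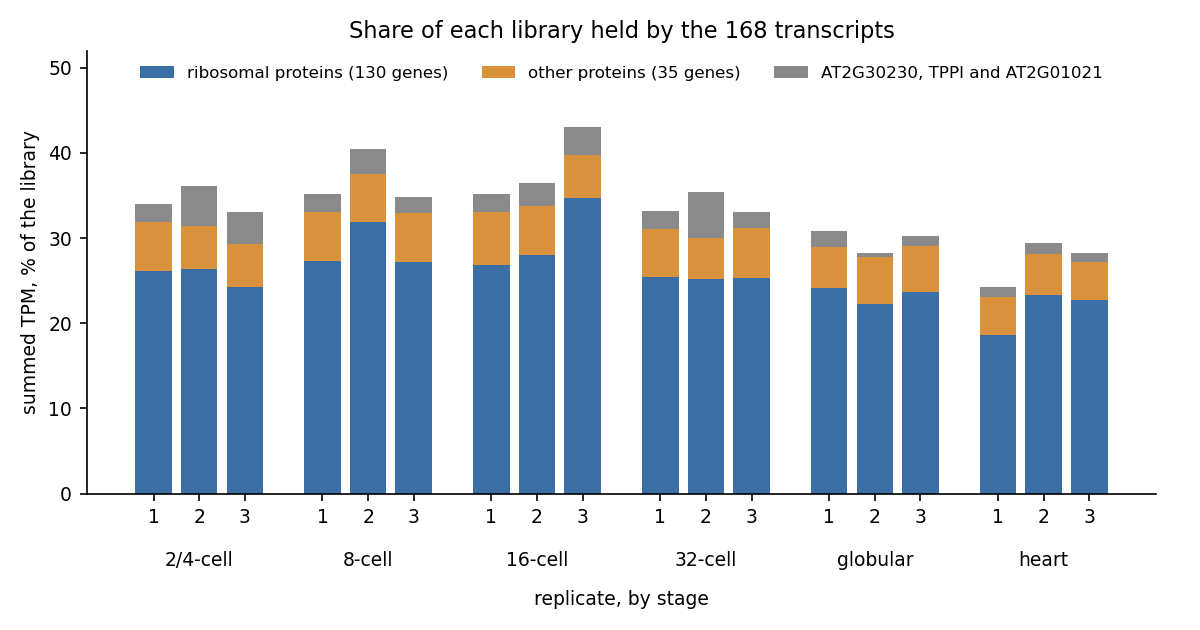
Summed TPM of the 168 transcripts in each library, as a percentage of the library, split into ribosomal proteins, other proteins, and the 3 loci AT2G30230, TPPI and AT2G01021. Each bar is 1 library. The shares ran from 24.2% in heart replicate 1 to 43.1% in 16-cell replicate 3.

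The 2 highest transcripts by mean were not ribosomal. AT2G30230, annotated by RefSeq as a lumazine synthase, an enzyme of riboflavin synthesis, averaged 9540 TPM over the 18 libraries. TPPI (AT5G10100), a trehalose-6-phosphate phosphatase of trehalose metabolism, averaged 8219 TPM. AT2G30230 had 6224, 20959.9 and 18064 TPM in the 2/4-cell libraries, 8652, 13711 and 7478 at 8-cell, 9863, 10752 and 16496 at 16-cell, 8288, 21254 and 7569 at 32-cell, 8756, 1196 and 3665 at globular and 3654, 2688 and 2456 at heart. TPPI had 4610.3, 16994 and 14414 TPM in the 2/4-cell libraries, 7762, 12095 and 6819 at 8-cell, 8645, 9398 and 14720.3 at 16-cell, 6889.9, 17540.1 and 6759.9 at 32-cell, 8039.7, 1265 and 3464 at globular and 3253, 2901 and 2367 at heart. Libraries of one stage lay up to 7.32-fold apart for AT2G30230 and 6.35-fold for TPPI, both at globular. The ratio of TPPI to AT2G30230 nevertheless stayed between 0.741 and 1.08 in all 18 libraries.

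Both genes share a sequence feature that is rare in the genome. Of 27431 nuclear genes with a coding sequence, 7 had an unbroken run of 31 or more A or T in an annotated transcript, where 31 bases is the default word length of kallisto, the quantifier in the submitters' processing notes. AT2G30230 (chr2:12897054-12898172, plus strand) carries 36 T in its 3′ untranslated region, and 1 isoform of TPPI (chr5:3157694-3161708, plus strand) carries 41 A in its 3′ untranslated region. The other 5 genes were AT4G11485 (LCR11, a small cysteine-rich protein) with a mean of 583.3 TPM, AT3G52700 with 216.5 TPM, AT1G10095 with 71.6 TPM, AT5G18610 with 47.7 TPM, and AT3G58780, which stayed between 3.53 and 88.0 TPM. None of these 5 belongs to the 168.

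All 7 were highest in the same library at each of the first 5 stages. This was replicate 2 at 2/4-cell, 8-cell and 32-cell, replicate 3 at 16-cell and replicate 1 at globular. At heart, 3 of the 7 were highest in replicate 1. The lowest library was also shared by all 7 at 2/4-cell, 16-cell and 32-cell, by 6 of 7 at 8-cell, by 5 of 7 at globular and by 4 of 7 at heart. LCR11 had 379, 1113 and 969 TPM at 2/4-cell and 520.3, 1069.9 and 478 TPM at 32-cell, the same order of libraries as the 2 abundant genes. The orders differed at the last 2 stages, where LCR11 had 511, 224 and 177 TPM at globular and 406, 738 and 535 TPM at heart. AT5G18610 had 42.4, 102 and 78.5 TPM at 2/4-cell and 49.3, 103 and 39.9 TPM at 32-cell. How many genes without a run were also highest in these libraries was not counted. The same libraries are met again below, where short and long transcripts are compared. The part of the run in the TPM of these genes was not tested. Their values are given here as deposited, and counts without AT2G30230 and TPPI are given with the processing alternatives.

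**Figure D2:**
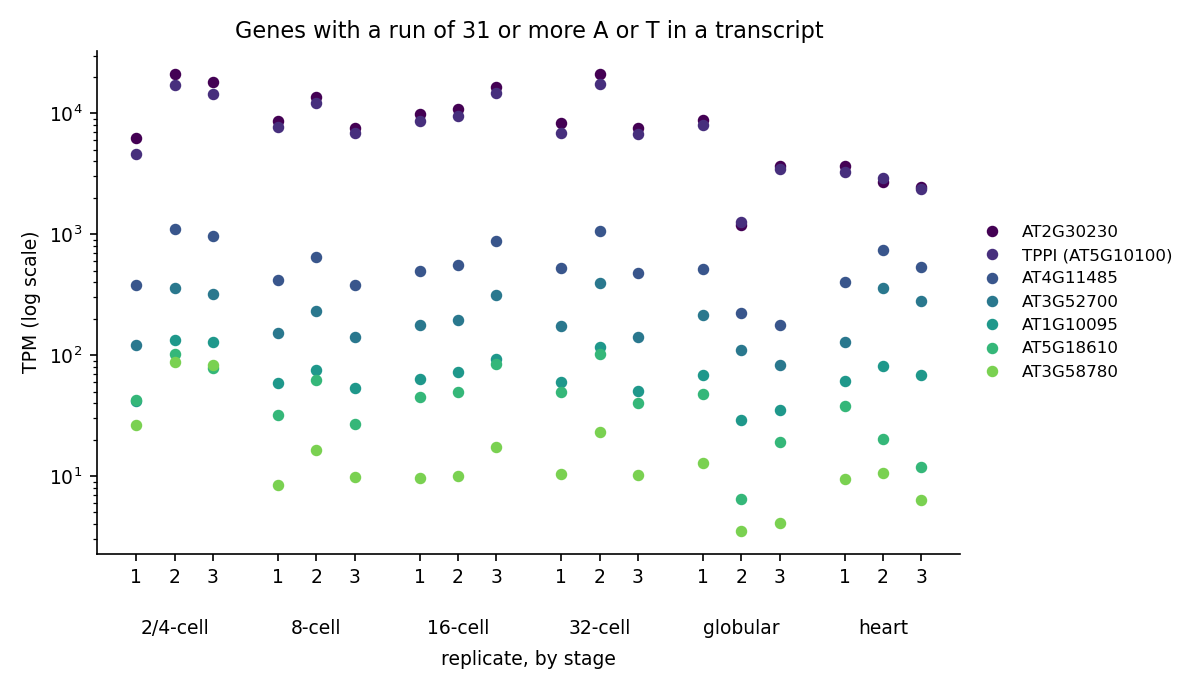
TPM on a log scale of the 7 genes whose annotated transcripts hold an unbroken run of 31 or more A or T, in each library, where a point is 1 library. All 7 are highest in the same library at each of the first 5 stages, but only 5 of 7 are lowest in the same library at globular, and AT2G30230 lies between 1196 and 21254 TPM. Genes without a run were not counted in the same way.

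Another locus, AT2G01021 (chr2:6571-6672, plus strand), is annotated as a protein-coding gene of 102 bases, 625 bases after the ribosomal RNA gene AT2G01020. It averaged 5575 TPM, with 10832, 8917 and 4962 TPM in the 2/4-cell libraries, 4637, 3346 and 4740.2 at 8-cell, 3409, 7001 and 1433 at 16-cell, 6053, 14883 and 4654 at 32-cell, 1834, 2332 and 4133 at globular and 4520.0, 7195 and 5469 at heart. Its highest library was 32-cell replicate 2 and its lowest 16-cell replicate 3. All 31-base words of its transcript also occur in AT3G06365, a noncoding RNA gene on chromosome 3, so reads cannot be assigned to 1 of the 2 loci.

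For most other members reads can be assigned. A median of 98.9% of a member's 31-base words were found in no other annotated gene, and 142 of 168 had 90% or more. The exceptions are uncertain as single genes, and 7 members had under 50%. Among these were AT4G29390 (38.3%) and AT2G05220 (46.4%), and AT5G48480 had 59.4%. AT1G58983 (S5 family) has no word of its own, the L6 family genes AT1G33120 and AT1G33140 share 57.6% and 58.5% of their words with each other, and the eEF1A gene AT5G60390 has 89.7% of its words to itself.

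The highest ribosomal protein was AT5G15200, of the small subunit, whose promoter is shown above. It had 5727, 5283 and 4883 TPM in the 2/4-cell libraries, 5834, 6424 and 5515 at 8-cell, 6491, 6199 and 6558 at 16-cell, 5213, 4669 and 5872 at 32-cell, 4938, 5036 and 5299 at globular and 4252, 4612 and 4423 at heart. Its 3 heart libraries lay below every 2/4-cell library. The RefSeq name of AT5G15200 is S4, with 198 codons, and differs from the S4 (RPS4A) family name of AT5G07090, with 262 codons. AT5G02960 (S12/S23 family, small subunit) ranged from 3243 to 6519 TPM, AT5G20290 (S8e family, small subunit) from 3293 to 5506 TPM, AT4G27090 (L14, large subunit) from 2752 to 5823 TPM and AT3G53740 (L36e, large subunit) from 2583 to 6604 TPM over the 18 libraries. Means of the 130 ranged from 619.1 to 5402 TPM with a median of 1850 TPM.

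The steadiest members were also ribosomal, with 1 exception. AT5G07090 (S4 (RPS4A) family) had 2786, 2482 and 2337 TPM in the 2/4-cell libraries, 2866, 2764 and 2756 at 8-cell and 2759.7, 2556 and 2384 at 16-cell. It had 2453, 2149 and 2634 TPM at 32-cell, 2186, 2594 and 2447 at globular and 2459, 2366 and 2512 at heart. Its SD of log2(TPM + 1) over all libraries was 0.119, the lowest of the 168, and its highest library was 1.33 times its lowest. AT2G17360, AT3G53870, AT5G45775, RPL23AA (AT2G39460), AT5G22440 and AT5G48760 followed, together with ROC2 (AT3G56070), a cyclophilin that helps proteins fold. Over the 168 the median SD was 0.24, against 0.583 for all 18338 genes tested. Spread depends on level, so this is a description.

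Gene copies of one ribosomal protein family were often unequal in level. Among 22 families with an unambiguous RefSeq family name, 63 genes were in the table and 40 of them were among the 168. In 15 families the same gene led in all 18 libraries, and in 7 it stood at 3 times the next gene or more by mean. AT4G27090 held 87.7 to 92.0% of the L14 family's summed TPM in every library, with 4147 TPM on average, and its partner AT2G20450 averaged 481.9 TPM. AT1G02780 held 73.2 to 83.7% of the L19e family. In the L38e family AT2G43460 and AT3G59540 averaged 2269 and 2088 TPM, and in the S25 family AT2G21580 led in 14 libraries only.

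The shortest proteins of the set are the L41 copies AT3G08520 and AT2G40205, whose coding sequences are printed because they encode the same protein from unequal messages. Capitals mark the 4 of 78 bases that differ, and both translate to the same 25 residues.

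AT3G08520, chr3:2586032-2586206, plus strand: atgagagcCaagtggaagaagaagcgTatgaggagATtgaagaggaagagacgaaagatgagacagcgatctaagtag

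AT2G40205, chr2:16792355-16792531, minus strand: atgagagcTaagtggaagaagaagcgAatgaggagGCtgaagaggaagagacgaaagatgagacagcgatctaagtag

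AT3G08520 had 3315, 4351 and 3059.9 TPM in the 2/4-cell libraries, 3982, 6664 and 3677 at 8-cell, 3903, 4686 and 8626 at 16-cell, 4520.4, 6191 and 3164 at 32-cell, 5012, 1912 and 2468 at globular and 1534, 3021 and 2891 at heart. AT2G40205 had 1088, 1458 and 1167 TPM in the 2/4-cell libraries, 1455, 2106 and 1430.1 at 8-cell, 1457, 1735.0 and 3349.6 at 16-cell, 1841, 1983 and 1509 at 32-cell, 2288, 1063 and 1326 at globular and 868, 1820.5 and 1623 at heart. Both were highest in 16-cell replicate 3 and lowest in heart replicate 1. AT3G08520 was the higher copy in every library, with 47.9 to 61.1% of the summed TPM of 5 L41 genes. AT2G40205 shares 53.9% of its words with the gene AT2G40200, so its level is the less certain one.

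The L41 messages show in the extreme how short and long transcripts of the set parted between libraries of one stage. The 165 members outside the 3 loci above were ordered by transcript length, and the 41 shortest, of at most 808 bases, were set beside the 41 longest, of at least 1172 bases. In 16-cell replicate 3 the shortest had a median log2 difference of 0.37 from the stage mean and the longest -0.07. In globular replicate 1 the medians were 0.17 and -0.11, and in heart replicate 1 they were -0.33 and -0.03. In heart replicate 1 none of the 41 shortest lay above the stage mean, and in heart replicate 2 all 41 did. eEF1A, one of the longest, had 7646, 6867 and 3982 TPM in the 16-cell libraries, where AT3G08520 had 3903, 4686 and 8626 TPM. These are 2 single genes: in 16-cell replicate 3, 39 of the 41 shortest and 15 of the 41 longest lay above the stage mean. Within each stage before heart, the shortest stood furthest above the longest where all 7 genes with runs of A or T were highest. The medians differed by 0.11 in 2/4-cell replicate 2, 0.18 in 8-cell replicate 2 and 0.43 in 16-cell replicate 3. They differed by 0.27 in 32-cell replicate 2 and 0.28 in globular replicate 1. Whether these patterns are linked was not tested. In heart against 2/4-cell the median log2 fold change was -0.27 for the shortest and -0.27 for the longest.

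**Figure D3:**
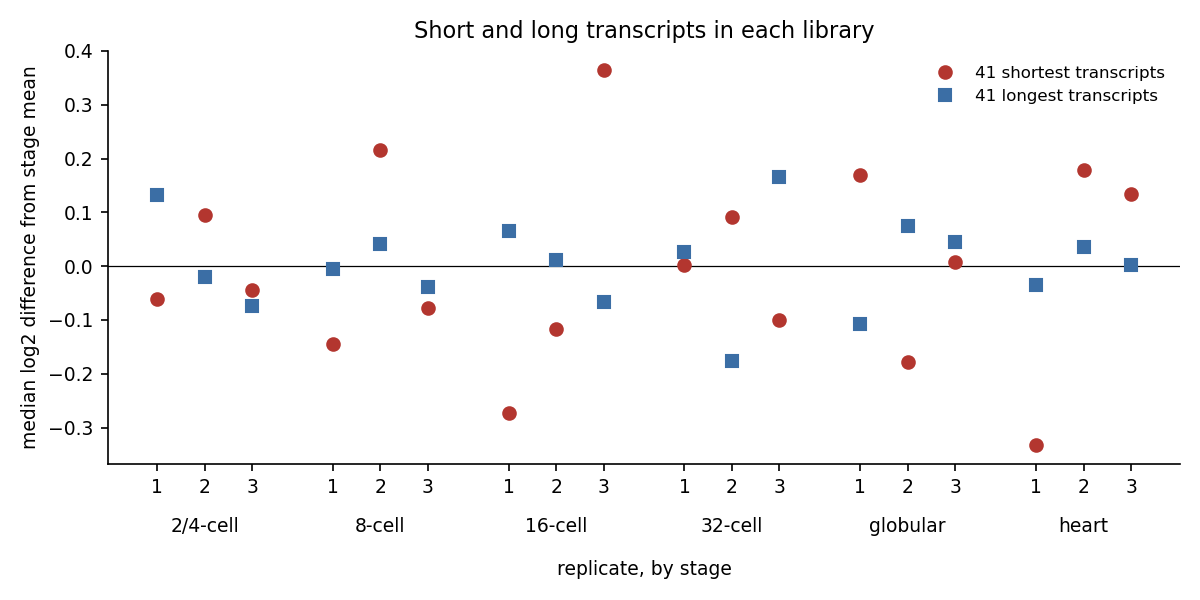
Median log2 difference from the stage mean, on log2(TPM + 1), of the 41 shortest and the 41 longest of 165 transcripts in each library. The 2 groups part most in 16-cell replicate 3, at 0.37 for the shortest and -0.07 for the longest.

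Translation factors were led by eEF1A, AT5G60390, which brings aminoacyl-tRNA to the ribosome and is often used as a reference gene. It had 8604, 5183 and 5801 TPM in the 2/4-cell libraries, 8263, 5988 and 6981 at 8-cell, 7646, 6867 and 3982 at 16-cell, 6375, 4451 and 7911 at 32-cell, 3879, 7802 and 5737 at globular and 6835, 5772 and 5431 at heart. Libraries of a stage differed more than stage means, and the moderated F test over the 6 stages did not call it (adjusted p = 0.896). The other elongation factor members were AT5G19510 and eEF-1Bb1 (AT1G30230), subunits of the exchange factor that recharges eEF1A. AT5G19510 had 1257, 1390.2 and 1311 TPM in the heart libraries, against 1849, 2332 and 1926 TPM in the 2/4-cell libraries. The groups did not overlap, and the difference was called (log2 fold change -0.62 ± 0.13 (SE), adjusted p = 0.001). FBR12 (AT1G26630), a form of eIF5A, ranged from 1029 to 1635 TPM, and BTF3 (AT1G17880), a subunit of the complex that binds nascent chains, from 1264 to 2246 TPM. AT4G10480 and AT1G73230, of the same complex, ranged from 729 to 1122 and from 598 to 998 TPM. RACK1B_AT (AT1G48630) and ATARCA (AT1G18080), scaffolds on the small subunit, ranged from 624 to 1349.6 and from 586 to 1003 TPM.

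AT3G24250, annotated as a glycine-rich protein, was lowest at 2/4-cell. It had 2880.2, 1638 and 1876 TPM in the 2/4-cell libraries, 4615, 5109 and 6825 at 8-cell, 8913, 6814 and 7014 at 16-cell, 10349.7, 8174 and 9007 at 32-cell, 9219, 9097 and 10356 at globular and 5423, 8175 and 6633 at heart. Every library from 8-cell on lay above every 2/4-cell library, and the stage means were 2131, 5516, 7580, 9177, 9557 and 6744 TPM in order of stage. By mean it ranked below AT2G30230 and TPPI alone, at 6784 TPM.

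GRP7, TCTP and LTP3 had their lowest stage means at globular or heart. GRP7 (AT2G21660), an RNA-binding protein under clock control, had 2482, 2558 and 2209 TPM in the 2/4-cell libraries, 1714, 1819 and 1722 at 8-cell, 2509, 2406 and 1267 at 16-cell, 1082, 954 and 1076 at 32-cell, 767, 724 and 788 at globular and 539, 783 and 539 at heart. Its 16-cell libraries were split, with replicate 3 below the others, and all libraries from 32-cell on lay below all earlier ones. TCTP (AT3G16640), a conserved protein of growth control, had 784, 1090.4 and 938 TPM in the heart libraries, against 1651, 2353 and 2174 TPM in the 2/4-cell libraries. LTP3 (AT5G59320), a lipid transfer protein of the kind found in cell walls, had 2351, 2649.8 and 2527 TPM in the 2/4-cell libraries, 2431, 1655 and 1901 at 8-cell, 3014, 1759.7 and 1893 at 16-cell, 3497, 2526 and 2736 at 32-cell, 3152, 2947 and 3934 at globular and 723, 1023 and 793 at heart. It was lowest in the 3 heart libraries, with no overlap with any other stage.

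Enzymes, carriers, chaperones and other single proteins made up the rest. NDPK1 (AT4G09320), which balances nucleoside triphosphates, ranged from 3435 to 5332 TPM. AAC1 (AT3G08580), the mitochondrial ADP/ATP carrier, ranged from 1694 to 3211 TPM, CYTC-1 (AT1G22840), a cytochrome c, from 592 to 1004 TPM and HOG1 (AT4G13940), which hydrolyses S-adenosylhomocysteine, from 894 to 2240.2 TPM. HSC70-1 (AT5G02500), a cytosolic chaperone and the longest protein of the set, ranged from 534 to 1679 TPM and ACT7 (AT5G09810), an actin, from 547 to 992 TPM. APX1 (AT1G07890), a cytosolic ascorbate peroxidase, ranged from 639.7 to 1184 TPM and RAN2 (AT5G20020), a small GTPase of nuclear transport, from 746 to 1167 TPM. AT3G62530 (ARM repeat family) ranged from 717 to 1044 TPM, AT5G47210 (an mRNA-binding family) from 995 to 1976 TPM, AT5G48480 (glyoxalase family) from 746 to 1589.7 TPM and AT4G37830 (cytochrome c oxidase family) from 502 to 835 TPM. HSC70-1, HOG1, AAC1 and ACT7 all had their lowest 16-cell value in replicate 3, the library where short transcripts were highest. No member of the lists for glycolysis or the core histones H2A, H2B, H3.1 and H4 passed the limit in every library.

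**Figure D4:**
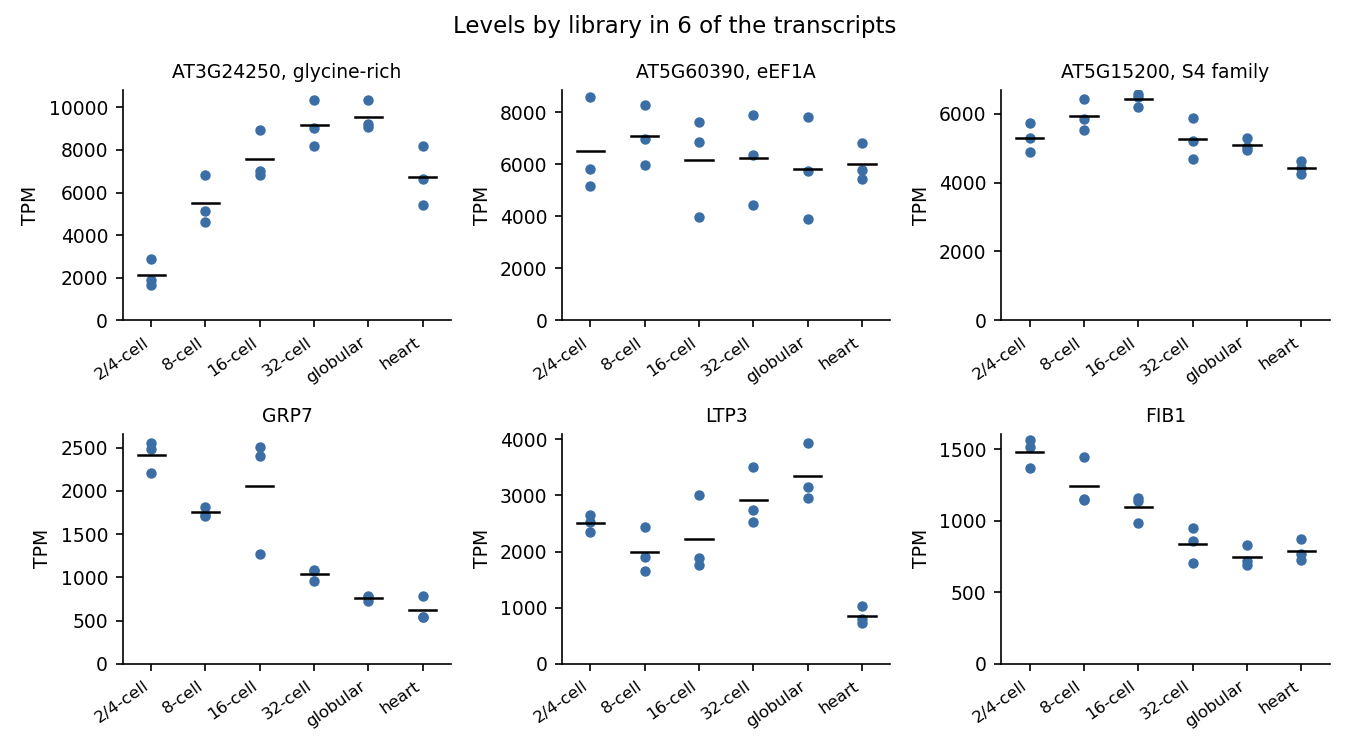
TPM of 6 of the transcripts at each stage, where points are libraries and black lines are stage means. AT3G24250 is higher at all stages after 2/4-cell, eEF1A spreads as widely within a stage as between stages, and LTP3 is lowest at heart.

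Levels at the ends of the series were compared with limma on log2(TPM + 1), with p-values adjusted over all 18338 genes tested. In heart against 2/4-cell, 3 of the 168 were called higher and 65 lower, at an adjusted p under 0.05. Over all genes tested, 34.5% were called higher and 12.3% lower. The median log2 fold change was -0.28 for the 168 and 0.46 for all genes tested. The limit of 500 TPM in every library keeps out genes that fell below it, so the count of falls is that of genes that stayed high.

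The counts depend on how libraries are scaled against each other. With median-ratio scaling 1 of the 168 was called higher and 130 lower, with a median of -0.77, where 20.3% of all genes tested were called higher and 20.7% lower, with a median of 0.03. With quantile normalization 21 of the 168 were called higher and 15 lower, with a median of 0.03. Of all genes tested under it, 20.4% were called higher and 18.3% lower, with a median of 0.07. Quantile normalization gives every library the same distribution of values, so it holds a set of the most abundant genes near 0 as a whole. The medians of the 168 under it lay between -0.03 and 0.07 in every comparison. It therefore cannot decide the direction of the set. Without heart replicate 1, 2 of the 168 were called higher and 40 lower, where 27.1% of all genes tested were called higher and 10.5% lower. With library weights in limma, 2 were called higher and 34 lower, where 29% of all genes tested were called higher and 10.2% lower. Seed coat markers (BAN, TT4 and DFR) summed to between 5.93 and 9.71 TPM in the heart libraries, against 301.8 to 1132 TPM in the 2/4-cell libraries. Their part in these changes was not tested.

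Over all genes tested in heart against 2/4-cell, 34.5% rose and 12.3% fell. Among ribosomal proteins, 1 of 130 rose and 44 fell, 21 of 77 in the large and 22 of 49 in the small subunit. The falls had log2 fold changes of -0.95 to -0.30. These directions hold for the deposited scale. Quantile normalization cannot decide them for the set, since it holds the most abundant genes near 0 as a whole. AT1G27400 (L22p/L17e family, large subunit) had 585, 834 and 697 TPM in the heart libraries, against 1308, 1524 and 1243 TPM in the 2/4-cell libraries (log2 fold change -0.95 ± 0.16 (SE), adjusted p = 8.9e-05). AT2G21580 (S25 family, small subunit) had 819.9, 1183 and 975 TPM in the heart libraries, against 1819, 2009 and 1818 TPM in the 2/4-cell libraries (log2 fold change -0.94 ± 0.16 (SE), adjusted p = 1.4e-04). In both, all heart libraries lay below all 2/4-cell libraries. AT1G48830 (S7e family, small subunit) was the one that rose, with 742, 702 and 765 TPM in the heart libraries, against 665, 569 and 576 TPM in the 2/4-cell libraries (log2 fold change 0.29 ± 0.11 (SE), adjusted p = 0.034). It was at -0.20 with median-ratio scaling, and its call was lost without any 1 of 4 libraries. The abundant AT5G15200 missed the threshold (log2 fold change -0.26 ± 0.11 (SE), adjusted p = 0.066), as did AT4G27090 (log2 fold change -0.27 ± 0.16 (SE), adjusted p = 0.166).

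Of 6 nucleolar and small ribonucleoprotein members, 5 fell, where 12.3% of all genes tested were called lower. FIB1 (AT5G52470), a fibrillarin that methylates ribosomal RNA, had 869.5, 768 and 725 TPM in the heart libraries, against 1563, 1516 and 1368 TPM in the 2/4-cell libraries (log2 fold change -0.91 ± 0.14 (SE), adjusted p = 3.1e-05). The heart libraries were all lower, and the stage means of FIB1 were 1482, 1245, 1095, 838, 746 and 788 TPM in order of stage. HD2B (AT5G22650), a plant-specific histone deacetylase of the nucleolus, had 915, 838 and 858 TPM in the heart libraries, against 1722, 1428 and 1479 TPM in the 2/4-cell libraries (log2 fold change -0.82 ± 0.13 (SE), adjusted p = 5.9e-05). AT5G20160 and AT5G08180 (L7Ae family), and AT3G03920 (Gar1/Naf1 family, of the particles that modify ribosomal RNA) had log2 fold changes of -0.65, -0.40 and -0.64. The sixth, AT3G62840, a small nuclear ribonucleoprotein, had 556, 652 and 655 TPM in the heart libraries, against 612, 615 and 634 TPM in the 2/4-cell libraries, with overlapping groups (adjusted p = 0.993). Except for AT5G08180 and AT3G03920 under quantile normalization, the 5 falls were called under every scaling tried.

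Outside the 3 loci described apart, GRP7 had the largest fall of the remaining proteins, to 539, 783 and 539 TPM in the heart libraries, against 2482, 2558 and 2209 TPM in the 2/4-cell libraries (log2 fold change -1.98 ± 0.20 (SE), adjusted p = 2.5e-07). LTP3 (log2 fold change -1.58 ± 0.20 (SE), adjusted p = 3.7e-06) and TCTP (log2 fold change -1.13 ± 0.16 (SE), adjusted p = 1.3e-05) also fell. AT2G30230 (log2 fold change -2.20 ± 0.55 (SE), adjusted p = 0.003) and TPPI (log2 fold change -1.89 ± 0.53 (SE), adjusted p = 0.0072) were lower, with the spread between libraries described above. AT3G24250 rose (log2 fold change 1.68 ± 0.20 (SE), adjusted p = 1.8e-06), and ROC3 (AT2G16600), a cyclophilin, had 949.7, 1052 and 1048 TPM in the heart libraries, against 714, 764 and 733 TPM in the 2/4-cell libraries (log2 fold change 0.46 ± 0.11 (SE), adjusted p = 0.0021). For ROC3 the difference was -0.03 with median-ratio scaling.

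Each of these roles is also held by genes below the limit. The lists give how many of all tested genes of a role passed the test in heart against 2/4-cell. Of all genes tested, 34.5% rose and 12.3% fell. With median-ratio scaling 20.3% rose and 20.7% fell, and with quantile normalization 20.4% rose and 18.3% fell. Of 12 elongation factor genes, 3 of them among the 168, 0 rose and 7 fell, with a median log2 fold change of -0.48, and 10 fell with median-ratio scaling and 4 with quantile normalization. Of 20 initiation factor and nascent chain genes 2 rose and 10 fell, with a median of -0.34, and 15 and 7 fell under the 2 scalings in that order. Of 13 ubiquitin and ubiquitin-like genes 0 rose and 5 fell, with 9 and 3 falls under the same scalings and 1 rise under quantile normalization. Of 5 glycine-rich RNA-binding and cold shock genes 0 rose and 4 fell, also under both scalings. Of 11 cytosolic and ER chaperones, which help proteins fold, 1 rose and 5 fell, and 8 fell with median-ratio scaling. Other lists turned with median-ratio scaling. Of 32 core histone genes 4 rose and 0 fell, but 1 rose and 4 fell with median-ratio scaling, and 6 rose and 0 fell with quantile normalization. Of 6 cyclophilins 3 rose and 2 fell, but 0 rose and 3 fell with median-ratio scaling, and 3 rose and 1 fell with quantile normalization. Of 10 glycolysis genes 2 rose and 2 fell, with 0 and 4 under median-ratio scaling and 3 and 2 under quantile normalization.

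**Figure D5:**
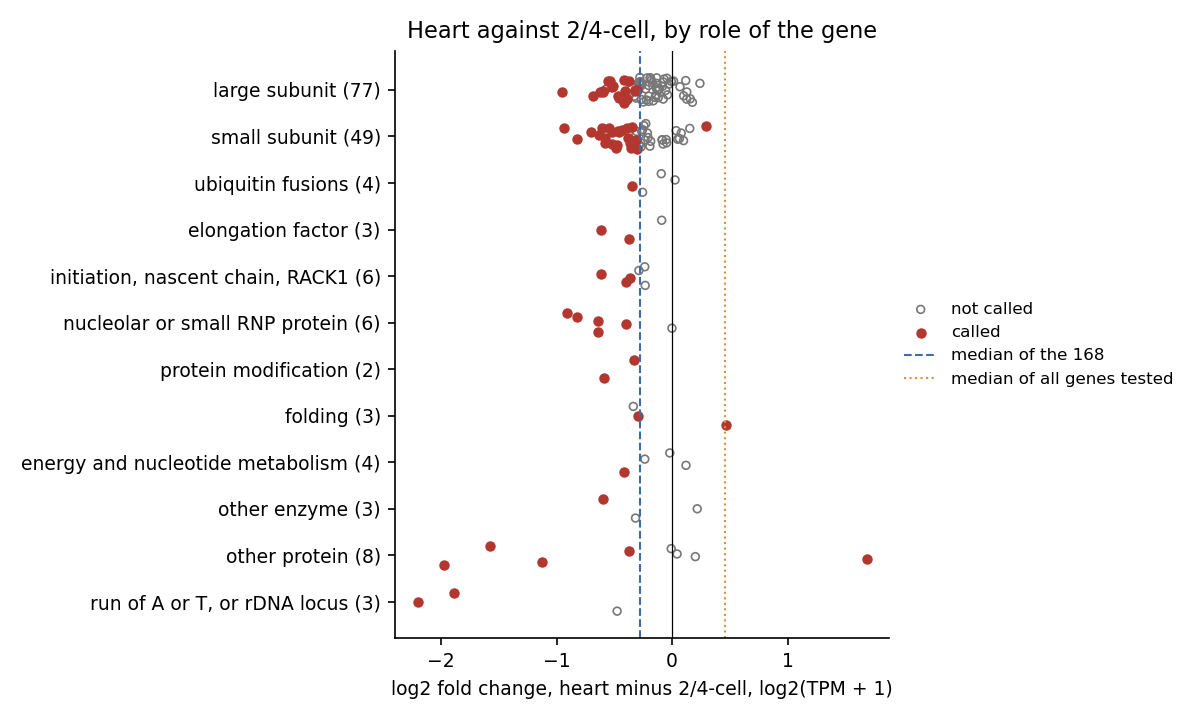
Log2 fold change of heart minus 2/4-cell on log2(TPM + 1) for each of the 168 genes, by role, with the number of genes in parentheses. Filled points passed an adjusted p under 0.05 in limma; the dashed line is the median of the 168 (-0.28) and the dotted line that of all genes tested (0.46). The 5 called points in the nucleolar row all lie left of 0. The median of the 168 was 0.03 with quantile normalization, which holds the most abundant genes near 0 as a set.

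Between consecutive stages few members were called. In 8-cell against 2/4-cell 1 was called higher and 0 lower, where 3.77% of all genes tested were called higher and 5% lower. The 1 was AT3G24250, with 4615, 5109 and 6825 TPM in the 8-cell libraries, against 2880.2, 1638 and 1876 TPM in the 2/4-cell libraries (log2 fold change 1.39 ± 0.20 (SE), adjusted p = 1.3e-04). It was not called when only these stages were in the fit. At an unadjusted p under 0.05, limma called 26 higher and 2 lower, against 10.6% and 11.2% of all genes tested. All 8-cell libraries lay above all 2/4-cell libraries for 60 of the 168, against 9.16% of all genes tested. The summed seed coat markers were 24.5 to 55.8 TPM in the 8-cell libraries, against 301.8 to 1132 TPM in the 2/4-cell libraries, and their part in these changes was not tested.

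In 16-cell against 8-cell limma called 0 higher and 0 lower, where 0.889% of all genes tested were called higher and 0.671% lower. At an unadjusted p under 0.05, 2 were higher and 2 lower, against 5.83% and 6.49% of all genes tested. Without 16-cell replicate 1, 1 was called lower. In 32-cell against 16-cell limma called 0 higher and 3 lower, where 5.37% of all genes tested were called higher and 0.687% lower. At an unadjusted p under 0.05, 2 were higher and 54 lower, against 17% and 2.82% of all genes tested. The 3 called were GRP7, AT5G58420 (S4 (RPS4A) family) and AT1G74050 (L6 family protein). AT1G74050 has 233 codons, and the L6 family genes AT1G33120 and AT1G33140 named above have 194. GRP7 had 1082, 954 and 1076 TPM in the 32-cell libraries, against 2509, 2406 and 1267 TPM in the 16-cell libraries (log2 fold change -0.93 ± 0.20 (SE), adjusted p = 0.0073). All 3 calls were lost with quantile normalization and when only these stages were fitted. Without 16-cell replicate 3 or without 32-cell replicate 2, 1 call was left. Without 32-cell replicate 3 there were 6 calls, and without 16-cell replicate 2 or heart replicate 1 there were 5.

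In globular against 32-cell limma called 0 higher and 0 lower, where 0.889% of all genes tested were called higher and 1.05% lower. At an unadjusted p under 0.05, 6 were higher and 28 lower, against 7.63% and 6.42% of all genes tested. With library weights in limma 10 were called higher and 33 lower, where 11.4% of all genes tested were called higher and 7.53% lower. Without globular replicate 1, 1 was called lower. In heart against globular 0 were called higher and 1 lower, where 0.36% of all genes tested were called higher and 0.218% lower. At an unadjusted p under 0.05, 1 was higher and 13 lower, against 3.27% and 2.08% of all genes tested. With library weights 0 were called higher and 22 lower, where 6.96% of all genes tested were called higher and 3.98% lower. The 1 was LTP3, with 723, 1023 and 793 TPM in the heart libraries, against 3152, 2947 and 3934 TPM in the globular libraries (log2 fold change -1.99 ± 0.20 (SE), adjusted p = 3.8e-05). Over the 6 stages, the moderated F test called 104 of the 168 (61.9%), against 49.1% of all genes tested.

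The members also differed from tested genes in the median form of their messages, with wide ranges around it. TPM divides by transcript length, so the limit that chose the members is not independent of length. The coding sequence had a median of 487.5 bases, against 1137 over tested genes, and the annotated transcript 951.5 bases, against 1662. The share of codons ending in G or C had a median of 51.7%, against 41.6%. Of lysine codons, a median of 79.2% were AAG rather than AAA, against 50%. Single members ranged from 78 to 1956 bases of coding sequence and from 33.3 to 100% AAG. Among the other 38 members alone the AAG share was 71.4% and the coding length 532.5 bases. HSC70-1, HOG1 and eEF1A had the longest coding sequences of the 168.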

How the data were processed

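Whole-embryo mRNA of 18 samples, 3 at each of 6 stages, was analysed. The authors deposited 1 table of TPM per gene. Per the submitters' processing notes, Trim Galore 0.6.6 and kallisto 0.44.0 were used with TAIR10; the step from transcripts to genes is not given in the sources used here. All columns have the same total, so sequencing depth is unknown, and no counting intervals can be given. Samples were grouped by stage from the labels. Nuclear genes at 500 TPM or more in all 18 libraries were taken; 13 nuclear identifiers are not reported here, nor are plastid and mitochondrial ones.

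Genes that reached 1 TPM in 3 or more libraries were tested with limma 3.58.1 in R 4.3.3 on log2(TPM + 1), with 1 mean per stage over all libraries, an intensity trend, two-sided tests and Benjamini-Hochberg adjustment over 18338 genes, called under 0.05. The fit was tested on simulated data. Nothing says that libraries are separate plants, so p-values measure the spread between these samples. Fold changes are on the TPM + 1 scale.

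Sequence features came from RefSeq's TAIR10.1 genome and annotation, matched by locus; its transcripts may differ from those the authors indexed. Alternatives were other pseudocounts (0.1 and 5), filters, scalings, weights, a replicate block, fits of only the stages compared, each library left out, and AT2G30230 and TPPI left out, the last chosen after seeing the data. Members, lists and comparisons were chosen with earlier results of these data known. Genes were named by mean, size of called change, steadiness, nearness to the limit, protein length and role outside ribosomal proteins. AT1G74050, the genes with runs of A or T, those sharing words and the paralogues were named after their values were seen.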

Additional observations from a re-analysis of the deposited data

How the results depend on the processing

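Counts of called members that moved by more than 1.5 times are grouped by setting. Heart against 2/4-cell, at 68, gave 131 with median-ratio scaling, 36 with quantile normalization and 36 with library weights. The count of 3 in 32-cell against 16-cell became 6 with no filter, 8 with median-ratio scaling, 8 when scaled to the total of the non-members, and 0 with quantile normalization or with only the stages compared in the fit. The count of 1 in 8-cell against 2/4-cell became 2 with quantile normalization and 0 with only the stages compared. Globular against 32-cell, at 0, gave 3 with quantile normalization, 43 with library weights, 4 with only the stages compared and 1 with the replicate block. Heart against globular, at 1, gave 22 with library weights. The count of 104 members varying over the stages became 35 with quantile normalization. The set had 328 genes at a threshold of 250 TPM and 91 at 1000 TPM. Leaving out 1 library at a time gave 42 (without heart replicate 1) to 76 calls in heart against 2/4-cell, 0 to 1 in 16-cell against 8-cell and in globular against 32-cell, 1 to 6 in 32-cell against 16-cell, 1 to 3 in 8-cell against 2/4-cell (3 without 2/4-cell replicate 1 or 16-cell replicate 3) and 83 to 112 over the stages. Among the called genes named in the text, those that changed sign were AT1G48830 (-0.20) and ROC3 (AT2G16600, -0.0268) with median-ratio scaling and FBR12 (AT1G26630, 0.0296) with quantile normalization. Other called members are not covered by this list. The cause was not tested. Leaving AT2G30230 and TPPI out of the members and the total gave 76 calls in heart against 2/4-cell and 106 over the stages.

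Same-numbered libraries of different stages had correlations of deviations of -0.139 to 0.21, with a median of 0.03. Those of other numbers had -0.243 to 0.259, with a median of -0.02. Above 0.1 were 9 of 45 pairs of the same number and 7 of 90 of other numbers. These values do not settle whether replicate numbers pair the samples. With the replicate block, 66 members were called in heart against 2/4-cell and 100 over the stages. Depth is unknown, which limits what low spread between libraries means.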
